A study of Coprinopsis cinerea with 4 samples.

Results

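The genes described here were read in both hyphae libraries and in neither oidia library of the mushroom Coprinopsis cinerea. They were chosen by their read counts, namely 0 reads in both oidia libraries and at least 10 in both hyphae libraries of the gene rows, which gave 186 of 13342 genes (1.39%). The counts of all 4 libraries were used in the choice, so their hyphal levels and the absence of oidia reads are a description and were not tested. The series compared hyphae with oidia of strain okayama7#130, with 2 libraries of poly(A)-selected RNA each, in work on TET/JBP proteins, a family whose TET members oxidise methylcytosine. Hyphae were prepared with an Illumina kit (NEBNext Ultra) and oidia with a SOLiD kit (Total RNA-seq), and any stage difference below is also a difference of kit, so the effects of stage and kit cannot be told apart. Reads in genes numbered 3546635 to 4586306 in the hyphae libraries and 6128727 to 7519091 in the oidia libraries. Nothing in the labels says that the libraries of a stage came from separate cultures. In bulk RNA, fewer cells that use a gene and less of its RNA per cell cannot be told apart.

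Hyphae are the growing, branching filaments of the vegetative mycelium, which take up nutrients at their tips and secrete enzymes and surface proteins. Oidia are single-celled asexual spores that the mycelium cuts off from aerial branches, and they germinate into new hyphae. Filamentous fungi carry many gene families that have grown by duplication, and copies often lie side by side. The sources used here give these loci no product names, so roles cannot be assigned to the single genes, and the stage labels were not checked against marker genes. The table does sort gene regions into orthologous, paralogous and orphan classes. In the usual sense of these words, orthologous genes have a counterpart in other species, paralogous genes have copies in the same genome, and orphan genes have no recognised relative. The sources used here do not say how the classes were called.

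Most of the 186 genes were read at a low level in hyphae. Hyphae replicate 1 had a lowest, median and highest count of 10, 35.5 and 4483 reads, and hyphae replicate 2 had 10, 25 and 3743. In CPM, reads scaled to library size with TMM factors (a normalization that assumes most genes do not change), the mean hyphal level ran from 1.46 to 595 CPM with a median of 4.27. The 9069 genes that had at least 10 reads in both hyphae libraries and also an oidia read had a median of 20.7 CPM. Together the 186 genes took 0.377% of gene reads in hyphae replicate 1 and 0.393% in hyphae replicate 2. A single gene held 26.3% of these 31232 reads, and the 10 most abundant held 50.7%.

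The oidia side is a limit and not a level. A count of 0 in both oidia libraries allows up to 3 reads over the stage, or 0.376 CPM, for counting error only. Each fold below is a lower bound against that floor, with the hyphal reads taken as counted. Counting error of the hyphal reads is not included in the bound and weighs most where they are few. The bound had a median of 11.3-fold and ran from 3.83-fold to 1575-fold. It reached 16-fold in 66 genes, 64-fold in 15 and 128-fold in 4. With 1 oidia library left out the floor rises, and 16-fold was reached by 32 genes without oidia replicate 1 and by 38 without oidia replicate 2, while the median bound was 5.05 and 6.21. All 186 genes had enough reads to enter edgeR's quasi-likelihood test and all were called higher in hyphae at an adjusted p under 0.05, where 45.2% of the 9866 tested genes were called higher in hyphae and 82.9% were called in either direction. The choice of the genes fixes this count, and nothing is read from it. In the authors' deposited table all 186 had an adjusted p under 0.05, as did 7081 of 12861 genes with a value there.

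CC1G_05776 stood well above the rest. Hyphae replicates 1 and 2 gave it 4483 and 3743 reads while both oidia libraries gave 0, which is 570 and 619 CPM and at least 1575-fold above oidia. Its region lies on chromosome 12 from 138358 to 139229 and is classed as paralogous (coordinates here and below are those of the deposited table, for which the sources used here name no genome build). CC1G_11188 followed with 994 and 843 hyphal reads and none in oidia, at least 352-fold; its region spans 1419359 to 1419818 of chromosome 10. CC1G_08382 came next with 750 and 649 hyphal reads and none in oidia, at least 268-fold; its region spans 2790933 to 2791447 of chromosome 7. All 3 are paralogous regions of 460 to 872 bp, and the hyphae libraries differed little from each other for each of them.

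The next genes were lower. CC1G_00952, on chromosome 7, averaged 68.6 ± 0.444 CPM in hyphae (SD, n = 2), at least 183-fold above oidia. CC1G_15369 on chromosome 12, CC1G_02174 on chromosome 10, CC1G_09456 on chromosome 6 and CC1G_13754 on chromosome 1 averaged 48.2 ± 2.91, 45.3 ± 1.95, 41.7 ± 1.86 and 40.98 ± 2.38 CPM in hyphae (SD, n = 2 each). All 5 are paralogous. The 12 that complete the 20 most abundant genes lay between 19.3 and 35.9 CPM in hyphae, namely CC1G_14979, CC1G_10578, CC1G_00786, CC1G_02398, CC1G_06684, CC1G_13755, CC1G_06460, CC1G_12122, CC1G_10614, CC1G_11887, CC1G_01032 and CC1G_08239. Of the 20, 18 are paralogous, 2 are orphans (CC1G_02398 and CC1G_12122) and 0 are orthologous.

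**Figure D1:**
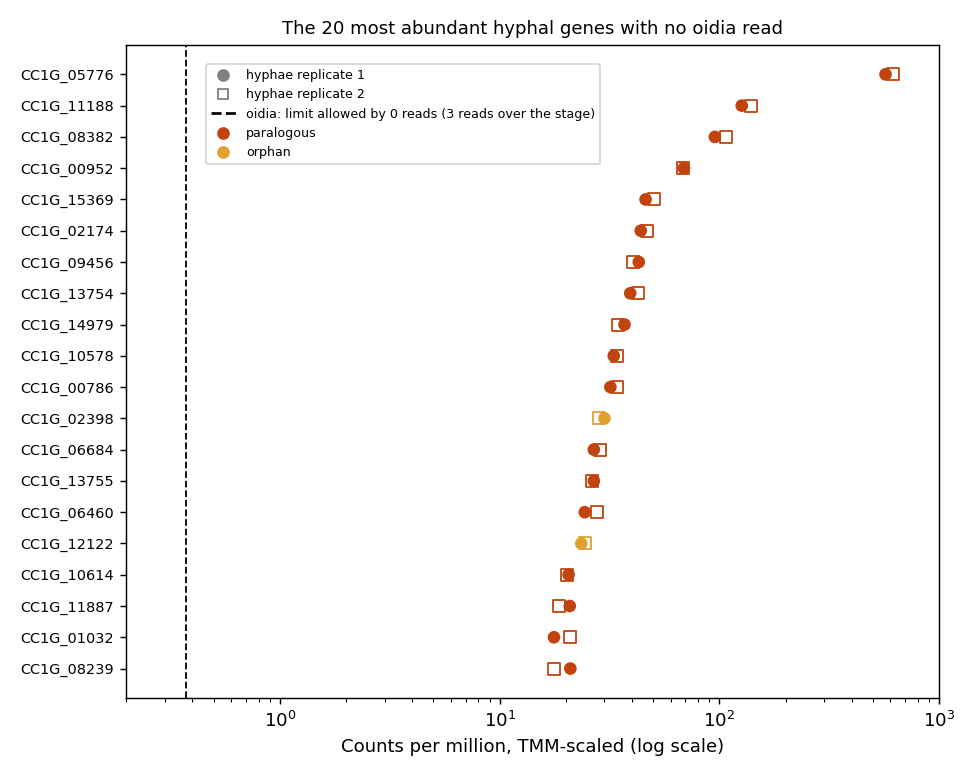
Hyphal level of the 20 most abundant genes without an oidia read, in TMM-scaled CPM on a log axis, with a filled circle for hyphae replicate 1 and an open square for hyphae replicate 2, coloured by region class. The dashed line is the 0.376 CPM that 0 oidia reads allow, and the lowest point is at 17.7 CPM.

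Length changes this order. Per kb of region, CC1G_05776, CC1G_11188 and CC1G_08382 were still the highest, at 690, 289 and 188 CPM per kb in hyphae. CC1G_00952, with a region of 4174 bp, came to 16.4 CPM per kb and rank 28, and CC1G_09456, with 3430 bp, to 12.1 CPM per kb and rank 36. The short CC1G_13754 (399 bp) and CC1G_02174 (448 bp) moved to ranks 4 and 5, at 105 and 101 CPM per kb, and the orphan CC1G_02398 (330 bp) to rank 6, at 88.6 CPM per kb. Of the 20 most abundant genes 15 were also among the 20 highest per kb. Over all 186 genes the median was 3.97 CPM per kb, against 12.2 CPM per kb for genes with hyphal reads and an oidia read.

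The choice required 10 reads in each hyphae library, which limits how far the libraries can differ for genes with few reads. The scaled ratio of hyphae replicate 1 to replicate 2 had a median of 0.993 and ran from 0.347 to 2.66, and for the 9069 genes with an oidia read the median was 1.00, with a range of 0.394 to 2.69. Among genes under 200 hyphal reads, replicate 1 was more than 1.5-fold higher for 9 of 156 (5.77%) without an oidia read and for 204 of 3643 (5.60%) with one. Replicate 2 was more than 1.5-fold higher for 14 (8.97%) without an oidia read and for 162 (4.45%) with one. Of these genes, 82 of the 156 and 955 of the 3643 had only 20 to 49 hyphal reads, so the groups are not matched in reads. The orphan CC1G_14127 was the farthest apart, with 69 reads in hyphae replicate 1 and 153 in replicate 2, which is 8.78 and 25.3 CPM. In the other direction the orthologous CC1G_14612 had 38 and 11 reads in hyphae replicates 1 and 2, or 4.83 and 1.82 CPM.

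**Figure D2:**
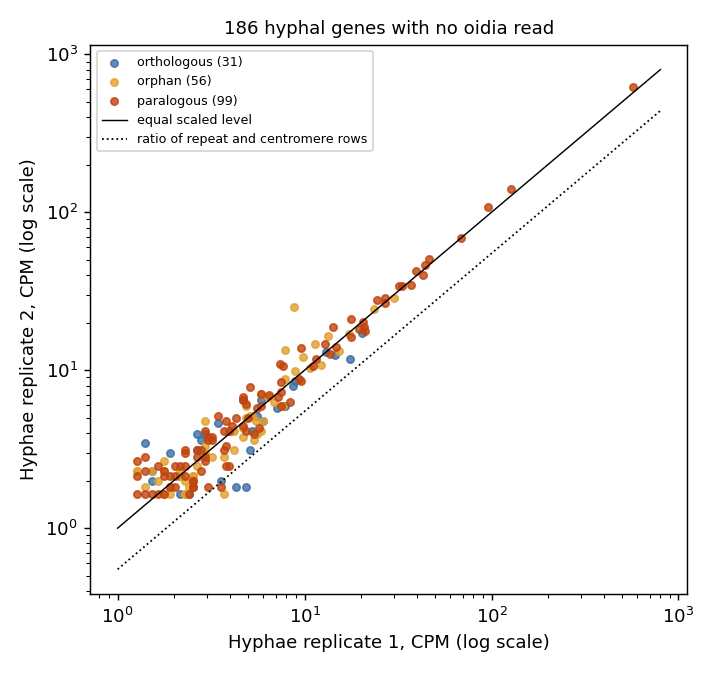
Level of each of the 186 genes in hyphae replicate 1 (x axis) and hyphae replicate 2 (y axis), both in TMM-scaled CPM on log axes, coloured by region class. The solid line marks equal level, close to the median ratio of 0.993, and the dotted line marks the ratio of 1.82 of repeat and centromere rows; CC1G_14127 is the point farthest above the solid line.

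Reads in repeat and centromere rows are given beside these values, and their bearing on the hyphal counts was not tested. The table's 790 repeat and centromere rows with no oidia read, some of which may overlap genes, had a pooled density of 0.846 (hyphae replicate 1) and 0.357 (hyphae replicate 2) reads per kb, a scaled ratio of 1.82. The median gene without an oidia read had 30.4 and 24.8 reads per kb in its region. The 95th percentile of the 476 such rows of at least 500 bp was 3.14 and 1.496 reads per kb, and 185 of the 186 genes lay above it in both libraries. The choice of the genes fixes most of this count, since 181 of the regions are short enough to exceed it with the required 10 reads alone, and nothing is read from it. The gene not above it was CC1G_15488, with 3.50 and 1.42 reads per kb and a scaled ratio of 1.96. It had 28 and 11 reads in hyphae over a region of 7720 bp on chromosome 6 from 36637 to 44356. This region overlaps rows of the Kyakuja transposon family, among them a TET/JBP row, and reads of the gene and of those rows cannot be told apart.

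More than any other class, paralogous regions made up these genes. Of the 186, 99 were paralogous (53.2%, 95% exact binomial interval 45.8 to 60.6), 56 orphan (30.1%, 23.6 to 37.2) and 31 orthologous (16.7%, 11.6 to 22.8). Among the 9068 genes with hyphal reads, an oidia read and a class, 17.3% were paralogous, 22.6% orphan and 60.1% orthologous. The 98 of them with a fitted change of at least 64-fold towards hyphae lay between, with 41.8% paralogous, 25.5% orphan and 32.7% orthologous. These 98 had a median of 58.9 CPM in hyphae, against 4.27 CPM for the 186, so the sets are not matched in reads. Genes with no read in any library, of which 370 have a class, were also rich in paralogous (52.7%) and orphan regions (44.3%). All genes with a class held 28.1% paralogous, 27.8% orphan and 44.1% orthologous regions. The sources used here do not say what was done with reads matching several copies, so counts of single paralogous genes are uncertain.

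**Figure D3:**
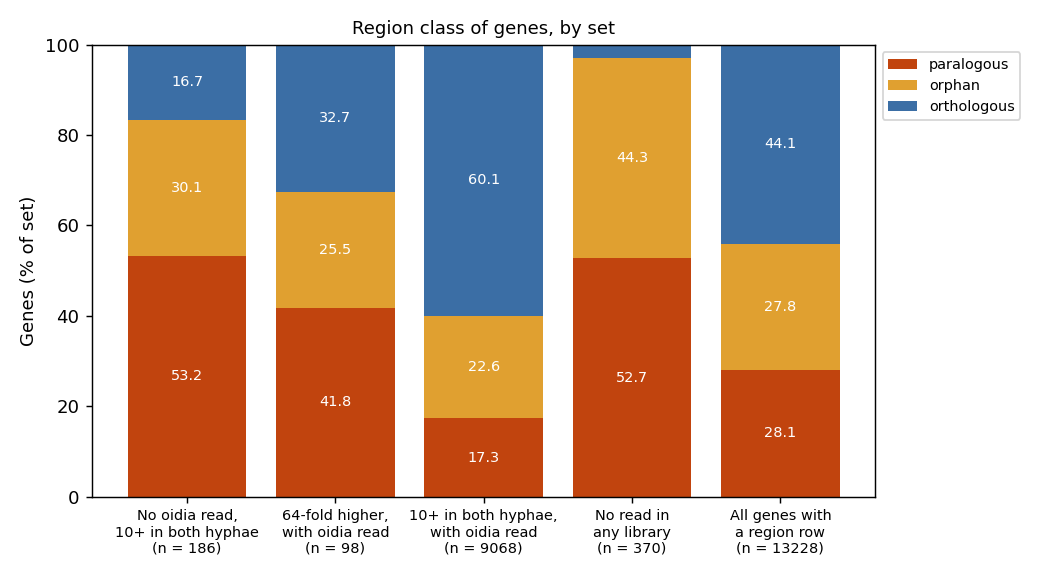
Share of paralogous, orphan and orthologous regions, in percent of genes with a region row, for genes without an oidia read and 4 comparison sets. The left bar holds 53.2% paralogous regions, against 17.3% among genes read in both stages.

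The classes were also set side by side within bands of hyphal reads, with intervals and no test. The bands are wide, so reads are matched only roughly. Of paralogous genes with at least 10 reads in both hyphae libraries, 5.92% had no oidia read (99 of 1671), against 2.66% of orphan genes (56 of 2104) and 0.566% of orthologous genes (31 of 5479). With 20 to 49 hyphal reads in all, the shares were 10.9% of paralogous, 6.63% of orphan and 5.32% of orthologous genes, and their intervals overlap. With 50 to 99 hyphal reads they were 5.84%, 5.34% and 1.87%, and with 100 to 199 they were 3.80%, 1.96% and 0.488%. With 200 to 999 hyphal reads they were 4.50%, 0.810% and 0.0740%, that is 19 of 422, 6 of 741 and 2 of 2704 genes. From 1000 reads on, 3 of 163 paralogous genes had no oidia read, against 0 of 287 orphan and 0 of 1138 orthologous genes. The 2 orthologous genes above 200 reads were CC1G_14670, with 159 and 104 hyphal reads, and CC1G_14108, with 137 and 71.

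**Figure D4:**
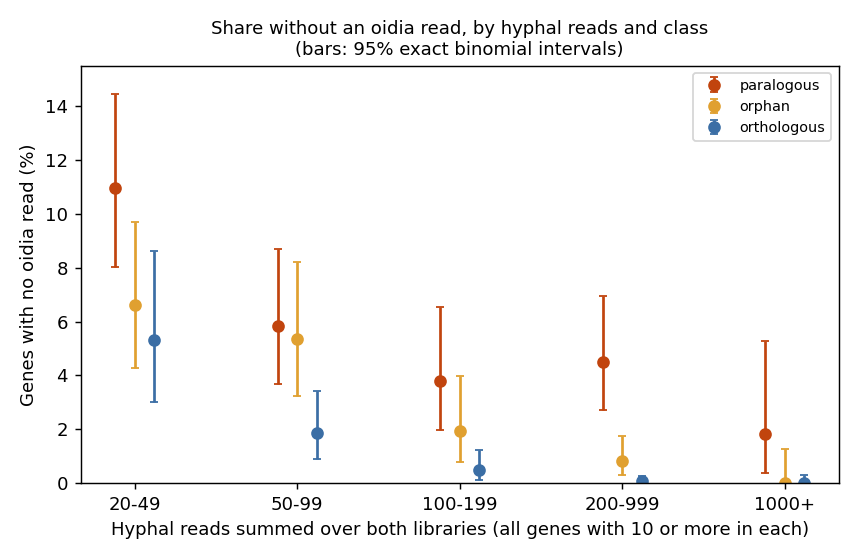
Share of genes with no oidia read (y axis, percent) by the number of hyphal reads summed over both libraries (x axis), for all genes with at least 10 in each, with 95% exact binomial intervals. Paralogous genes are at 10.9% at 20 to 49 reads and at 4.50% at 200 to 999 reads, where orthologous genes are at 0.0740%.

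Within the 186 genes the classes had medians close to each other, and paralogous genes held the highest levels. The median hyphal level was 4.48 CPM for paralogous, 4.21 for orphan and 4.03 for orthologous genes, while the highest was 595, 29.2 and 18.7 CPM. A bound of at least 64-fold was reached by 14 of 99 paralogous, 1 of 56 orphan and 0 of 31 orthologous genes. The most abundant orthologous genes were CC1G_14670, CC1G_14108, CC1G_06916 and CC1G_07856, at 18.7 ± 2.14, 14.6 ± 4.02, 13.5 ± 1.36 and 13.0 ± 0.0658 CPM in hyphae (SD, n = 2 each). They exceeded oidia at least 50.4-, 39.8-, 36.4- and 34.7-fold.

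The regions tended to be shorter than those of genes read in both stages. Their median length was 1049 bp, with a range of 156 to 7720 bp, against 1635 bp for genes with hyphal reads and an oidia read. The 98 of the latter fitted at least 64-fold higher in hyphae had a similar median, 1063 bp. Regions under 600 bp made up 18.3% (34 of 186), against 7.04% of genes with hyphal reads and an oidia read, 22.4% of the 98 fitted at least 64-fold higher and 12.1% of all. Paralogous, orphan and orthologous genes of the set had median regions of 1036, 954 and 1338 bp.

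Some of these genes lay side by side. A directly adjacent gene was also without an oidia read for 20 of the 186 (10.8%), in 10 pairs, whereas 347 of 13045 other genes (2.66%) lay next to one of the set. Allowing 1 gene in between gave 29 (15.6%) and 681 (5.22%). In 8 of the 10 pairs both genes were paralogous. Among paralogous genes alone, 17 of 99 of the set (17.2%) and 115 of 3618 others (3.18%) had a neighbour in the set. No run of 3 or more was found. The pairs were described after their values were seen, and their number is sensitive to the read minimum, with 45 adjacent genes at a minimum of 5 reads and 8 at a minimum of 20.

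Some pairs were read at unequal levels, and those farthest apart in CPM are given first. On chromosome 7 CC1G_00952 had 542 and 413 hyphal reads, and the next gene, CC1G_00953, had 18 and 13, a 30.9-fold difference in CPM. Their regions differ in length (4174 and 1155 bp), and per kb these genes came to 16.4 and 1.92 CPM in hyphae. On chromosome 12 CC1G_15369 had 363 and 304 hyphal reads beside 32 and 27 for CC1G_10480. CC1G_02174 on chromosome 10 had 345 and 282, beside 34 and 30 for CC1G_02173. These differences are in gene totals, and the region lengths of CC1G_02174 and CC1G_02173 (448 and 485 bp) are close. In contrast CC1G_13754 and CC1G_13755, 2 short regions on chromosome 1 from 3444095 to 3444493 and from 3444523 to 3445052, had 309 and 258 hyphal reads and 211 and 160. In 4 of the 10 pairs the higher gene was over 3-fold above the lower.

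A stretch of chromosome 10 held 3 of the 186 genes and several other paralogous genes of nearly the same length. CC1G_02181, CC1G_02182, CC1G_02183, CC1G_02184 and CC1G_02185 have regions of 437 to 479 bp between 1860806 and 1869527, with only the unread orphan CC1G_15346 among them. CC1G_02184, of the set, had 112 and 113 hyphal reads. CC1G_02182 had 1537 and 1335 in hyphae and 1 and 1 in oidia, CC1G_02183 had 288 and 219 against 2 and 0, and CC1G_02181 had 1057 and 803 against 9 and 5. These 3 neighbours were called higher in hyphae (edgeR), and their oidia reads kept them out of the set. CC1G_02185, with 1 and 1 reads in hyphae and none in oidia, was almost unread. The pair CC1G_02173 and CC1G_02174 lies before them, with 6 genes between CC1G_02174 and CC1G_02181. The orthologous CC1G_02171, near that pair, was lower in hyphae (log2 fold change of hyphae over oidia -2.22 ± 0.08 SE, edgeR adjusted p = 7.68e-149).

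A second stretch, on chromosome 6, showed 2 read genes in a row of nearly silent ones. CC1G_09456 and CC1G_09457 had 338 and 244 and 116 and 85 reads in hyphae, and none in oidia. The 4 paralogous genes before CC1G_09457 and the 4 after CC1G_09456 had between 0 and 13 reads in each hyphae library and at most 1 in an oidia library, and the orphan CC1G_15612 among them was unread. Of these 8 only CC1G_09458, with 13 and 8 hyphal reads, had enough reads to be tested. Near the start of the same chromosome CC1G_13146 and CC1G_15488 lay in a similar row, with 22 and 14 and 28 and 11 hyphal reads, and both overlap Kyakuja rows. Around CC1G_05776 the levels varied from gene to gene. Its neighbours CC1G_15377 and CC1G_05777 were read in both stages, with 15 and 12 and 100 and 71 reads in hyphae against 36 and 25 and 84 and 82 in oidia. The gene after CC1G_05777 is CC1G_05778, also of the set, with 37 and 27 hyphal reads.

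Genes directly next to the set are counted here only where they lie outside it, so their own reads decided that they stayed, and adjacent genes of the set are left out. Of 241 such neighbours with enough reads to be tested, 145 were called higher in hyphae (60.2%, 95% exact binomial interval 53.7 to 66.4, edgeR, adjusted p under 0.05), against 44.1% of all 9680 tested genes outside the set and 45.2% of all 9866 tested genes. Neighbours lower in hyphae were 26.6%, against 38.5%. At 2 genes away 50.6% were higher in hyphae, and at 3 to 10 genes away between 42.1% and 49.4%. The share was 64.4% of 59 tested paralogous, 59.2% of 120 orthologous and 58.1% of 62 orphan neighbours, and 48.4% of all tested paralogous genes outside the set. With total-count scaling, under which the typical tested gene shifts (median log2 change 1.79, against 0.25 with TMM), the shares were 84.2% of neighbours and 74.5% of all genes outside the set. Neighbours share their stretch of chromosome, so they are not independent, and the difference was not tested. Reads that run on from a gene into the next were not examined.

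**Figure D5:**
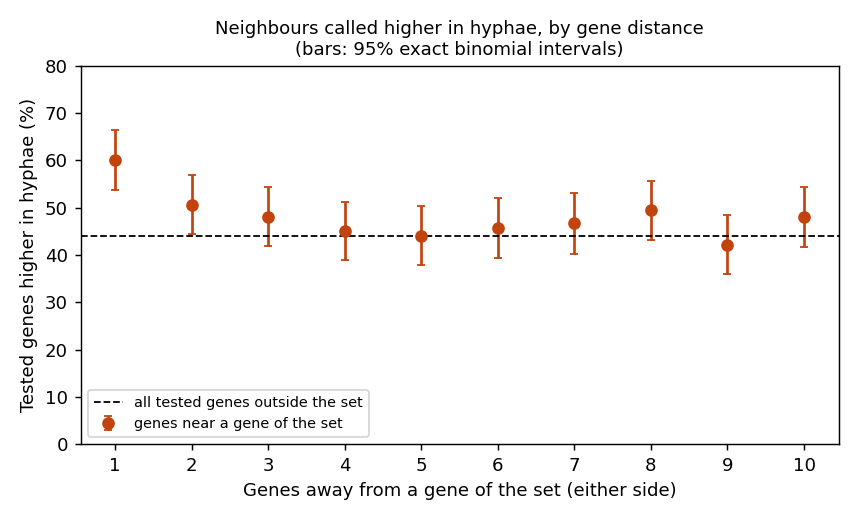
Share of tested genes called higher in hyphae (y axis, percent) by their distance in genes from a gene without an oidia read (x axis), with 95% exact binomial intervals. The dashed line is the 44.1% of all tested genes outside the set; the adjacent genes stand at 60.2%, and the genes 3 to 10 away lie near the line.

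Single genes show both outcomes. CC1G_00638, a short orphan 3 genes after CC1G_13755, was higher in hyphae, where it had 366 and 279 reads against 8 and 5 in oidia (log2 fold change 4.81 ± 0.25 SE, edgeR adjusted p = 1.11e-80). CC1G_00634, directly before CC1G_13754, was also higher in hyphae, with 164 and 134 reads there against 43 and 28 in oidia (log2 fold change 1.27 ± 0.20 SE, edgeR adjusted p = 1.09e-09). CC1G_10479, which lies between the set's CC1G_10478 and CC1G_10480, went the other way, with 123 and 113 hyphal against 566 and 463 oidia reads. Its log2 fold change was -2.92 ± 0.11 SE (edgeR adjusted p = 2.58e-147).

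The limit of the set is not a gap in the data. Just inside it, CC1G_02191, CC1G_03042 and CC1G_08059 had 29 and 10, 13 and 10, and 11 and 10 hyphal reads, and 17 genes in all had exactly 10 in the lower library. Just outside, 19 genes had no oidia read and 9 in the lower hyphae library, among them CC1G_05872 with 27 and 9 reads, CC1G_04887 with 9 and 23, and CC1G_10044 with 22 and 9. On the oidia side, CC1G_12454, CC1G_15645 and CC1G_08971 were left out by 1 oidia read each, with 887 and 671, 588 and 527, and 598 and 495 hyphal reads. With at least 10 reads in both hyphae libraries, 140 genes had 1 oidia read, 130 had 2, 90 had 3 and 87 had 4. Their median hyphal levels, 5.06, 4.69, 4.68 and 4.55 CPM, lay close to the 4.27 CPM of the 186, and 41.4%, 48.5%, 35.6% and 37.9% of them were paralogous. The rule gave 203 genes without hyphae replicate 1, 300 without hyphae replicate 2, 369 without oidia replicate 1 and 323 without oidia replicate 2. Leaving out a library removes a condition and can only add genes, so these numbers show only how many genes a single library kept out.

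A few zeros depend on how reads were assigned to a row. The region rows of 180 of the 186 genes also had no oidia read. Of the 6 others, CC1G_12115 had 6 and 5 oidia reads in its region row but 0 and 0 in its gene row, and it is the only gene of the set whose interval overlaps another gene in the gene list. CC1G_07570 had 4 and 0 oidia reads in its region row, and CC1G_07815, CC1G_10695, CC1G_05029 and CC1G_01609 had 1. In 3 genes the region row held less than 50% of the hyphal reads of the gene row, as in CC1G_02184, with 35 and 36 reads in the region row and 112 and 113 in the gene row.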

How the data were processed

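RNA of 2 hyphae and 2 oidia libraries was analysed, grouped by stage as titled. The authors deposited a table of read counts for genes and other elements, per the file headers, with adjusted p-values of their own comparison. TopHat, Bowtie 0.12.7 and DESeq are the tools named in, and credited per, the submitters' processing notes. The sources used here name no genome build, annotation, counter, strand or multimapping setting; overlapping, antisense and near-identical genes cannot be told apart.

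The 186 genes, the lists and the tests were chosen with earlier results of these data known. Gene rows were fitted with edgeR 4.0.16 in R 4.3.3 (quasi-likelihood test, filterByExpr, TMM factors from the tested genes, Benjamini-Hochberg adjustment over all 9866 tested genes, threshold 0.05). The fit was also run on simulated counts in which few genes changed, so that run does not cover a stage difference as broad as this one. Standard errors were derived approximately, from F and the log2 fold change. CPM used the TMM-scaled sizes, 6046718 to 7863179 in hyphae and 3557125 to 4431984 in oidia. Bounds used a floor of 3 reads over both oidia libraries and took the hyphal reads as counted. The reads had no molecular identifiers, so intervals (95%, Clopper-Pearson) and floors cover counting error only.

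Of the gene identifiers 13340 were in the RefSeq gene list (assembly CC3), which gave gene order. Region rows were joined to genes by the largest overlap, and 12141 of 13228 joined regions had a start or end within 3 bases of the gene. Lengths, classes and coordinates are those of the region rows. Named genes were the 20 most abundant of the set, genes at the limits of the rule, the extremes of the ratio between hyphae libraries, and runs of 3 or more (none found). The other genes were picked after their values were seen. Protein signatures, product lists, promoter motifs and hydrophobin or lectin markers could not be evaluated, as no sequences or product names were used here. With 2 libraries a stage, the smallest two-sided p of an exact permutation test is 0.333. Alternatives were other scalings, filters and minimums, DESeq2 1.42.0, a replicate block and leaving out each library. Those for neighbouring genes and for region rows were added after the data were seen.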

Additional observations from a re-analysis of the deposited data

How the results depend on the processing

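The number of genes without an oidia read was 349 with at least 5 reads in both hyphae libraries and 111 with at least 20, and ran from 203 to 369 with 1 library left out. With total-count scaling 7400 genes were called higher in hyphae, against 4455 with TMM. The median hyphal level of the 186 genes, 4.27 CPM with TMM, was 4.69 CPM with upper-quartile and 7.30 CPM with total-count scaling, and 3.51 to 5.11 CPM with 1 library left out. Their median bound over oidia, 11.3-fold with TMM, was 13.6-fold with upper-quartile and 33.0-fold with total-count scaling, and 5.05- to 12.1-fold with 1 library left out. A bound of 16-fold was reached by 156 genes with total-count scaling and by 32 to 71 with 1 library left out. Adjacent genes of the set numbered 45 at a minimum of 5 reads and 8 at a minimum of 20, where the set itself is larger or smaller. Neighbours called higher in hyphae were 84.2% with total-count scaling. The class shares and the median ratio between the hyphae libraries stayed within their intervals or spread under the alternatives run for them. All 186 genes were called higher in hyphae under the other scalings, DESeq2, no low-count filter and the block. With a hyphae library left out, fewer of them were both tested and called. Genes that were then not tested were not counted separately. The replicate block gave 7928 calls over all genes, against 8182 without it, and 4286 higher in hyphae. Deviations of the libraries numbered 1 had a correlation of -0.00944 over 9866 genes. This value comes from a single contrast, so it cannot show whether same-numbered libraries were prepared together. The log2 fold changes of the 11 neighbouring genes tried kept their sign and their call under every alternative that gave them a value.

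With 3 reads as the floor, a count of 0 does not exclude an oidia level of up to 0.376 CPM. Genes near the minimum of 10 hyphal reads have a bound of only about 4-fold, which leaves out the counting error of those reads. For a gene at the limit, 1 read decides whether it belongs to the set.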

Other observations

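The opposite pattern, at least 10 reads in both oidia libraries and none in hyphae, was found for 8 of the 7674 genes with at least 10 reads in both oidia libraries. The paralogous CC1G_14485 led them, unread in hyphae and with 182 and 156 oidia reads, before the orthologous CC1G_13629, unread in hyphae and with 67 and 45 oidia reads. The others were CC1G_00657, CC1G_15337, CC1G_10390, CC1G_01495, CC1G_14553 and CC1G_04867. Of the 8, 5 are paralogous. A count of 0 allows up to 0.216 CPM in hyphae and 0.376 CPM in oidia. The limits of the opposite sets are therefore unequal, and their sizes are not directly comparable.

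Genes without an oidia read were found on all 13 chromosomes, at 1.05% of the genes of chromosome 9 up to 2.09% of those of chromosome 13. Within 100 kb of the outermost regions of a chromosome lay 10.2% of them (19 of 186), against 3.94% of genes with hyphal reads and an oidia read. The share was 8.16% (8 of 98) for those fitted at least 64-fold higher in hyphae with an oidia read. It was 13.8% of genes with no read in any library and 6.92% of all genes. These sets differ in hyphal reads and were not matched. Repeat rows overlapped 3 of the 186 (1.61%), CC1G_12752, CC1G_13146 and CC1G_15488. The share was 2.09% of all genes and 0.154% of genes with hyphal reads and an oidia read. Transposon rows overlapped CC1G_13146 and CC1G_15488 (1.08%), against 1.86% of all genes and 0.0993% of genes with hyphal reads and an oidia read.

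A gene row at 0 does not always mean an unread locus. Of 370 genes with a region row and no read in any library, 4 had at least 20 reads in that region row.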
